A study of Mus musculus with 5 samples.

Results

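The heat shock protein and chaperone genes described here are 10 mouse genes chosen by name from the main chaperone families, out of 11608 genes with values for RNA Polymerase II. They are Hsp90aa1 and Hsp90ab1 (HSP90), Hspa8 (cytosolic HSP70), Hspa4 and Hsph1 (HSP110), Dnajb1 (HSP40), Hspa5 (the HSP70 of the endoplasmic reticulum), Hspa9 (the HSP70 of mitochondria), and Hspd1 and Hspe1 (the mitochondrial chaperonin and its lid). Every gene was accepted by its position on the mm9 genome as well as by its symbol. 9 of the 10 were listed under their own symbol, and Hsph1 was listed as Hsp110, at the Hsph1 locus with gene identifier 15505. All 10 had a row and a SICER interval, which is a stretch enriched over Input, in each of the 4 ChIP libraries. Hspd1 and Hspe1 are neighbours that shared all 4 values, so the 10 genes gave 9 separate values.

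Chaperones hold unfolded proteins and help them to fold, and many of their genes are switched on together when proteins are damaged by heat or other stress. HSP70 proteins bind short stretches of unfolded chains, HSP40 proteins deliver clients to them, HSP110 proteins exchange their nucleotide, and HSP90 acts later on signalling proteins such as kinases and receptors. Heat shock factors drive the cytosolic and some mitochondrial genes through heat shock elements, while the unfolded protein response drives the genes of the endoplasmic reticulum through their own element. The heat shock genes are also the textbook case of a polymerase that waits just after the transcription start before it is released into the gene.

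Naive CD4+CD62L+ T cells from spleens of C57BL6 mice, 6 to 8 weeks old, were differentiated into Th2 cells in vitro and their chromatin was immunoprecipitated with an antibody to RNA Polymerase II phosphorylated on serine 2, the form found on transcribing polymerase. The 4 conditions, with 1 library each, were Parp14+/+ and Parp14+/+ + PJ34, followed by Parp14-/- and Parp14-/- + PJ34. Values listed without names are in this order. The Input was a 50:50 mixture of both genotypes. PARP-14 is an ADP-ribosyltransferase that acts with STAT6, the factor downstream of IL-4, and PJ34 inhibits PARP enzymes as a class and is not specific to PARP-14. All cultures received plate-bound anti-CD3, anti-CD28, IL-4 at 10 ng/ml and an antibody to IFN-g for 3 days, followed by 4 days of expansion with IL-2 and IL-4. The labels give PJ34 as 10 µM applied to differentiated cells, whereas the methods describe a lower dose present during culture, so neither dose nor time of exposure is certain. How many mice stood behind a library is not given in the sources used here.

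The value of a gene was its average peak height, which is the number of overlapping fragments at the highest point of each active region of the gene, averaged over its active regions. An active region is a set of overlapping intervals merged over the libraries, and it can run over more than 1 gene. The authors had reduced every library to the same number of alignments, so heights were compared as deposited. The median height over the 8551 genes with an interval was 9.25 in Parp14+/+ and 10 in Parp14+/+ + PJ34 cells, and 9 in Parp14-/- and 8.5 in Parp14-/- + PJ34 cells. With 1 library per condition no difference has a replicate check and no test between conditions was run. The 95% intervals given below treat heights as counts, exact Poisson for a height and exact binomial (Clopper-Pearson) for a ratio, and they cover counting error only. A library is a whole culture, so fewer cells with polymerase at a gene and less polymerase per cell cannot be told apart.

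The labels were checked on other genes. The length of Parp14 under an interval was 22873 and 20837 bp in the Parp14+/+ libraries without and with PJ34, and 2687 and 3287 bp in the Parp14-/- libraries. Its average peak heights differed less, at 8 and 11 in the Parp14+/+ libraries and 6.67 and 6.67 in the Parp14-/- libraries. Intervals lay on 4, 4, 3 and 3 of the 4 Th2 markers (Gata3, Il4, Il5 and Il13) in that order, with summed heights of 180, 151, 95 and 77. These moved with genotype, and their part in the results below was not tested. They lay on 3 to 5 of the 5 T cell markers, and the CD8 marker Cd8a had no interval in any library. Of the 4 B cell markers, only Cd79a was assigned an interval, and at most 20 bp of the gene itself were covered. Of the 2 myeloid markers with a row, Csf1r was assigned an interval in 3 libraries at heights of 5.5 to 8.5 and Itgam in none.

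The promoters are shown first because the known regulators of these genes act there. The window searched ran from 250 bases before the annotated start to 50 bases after it, the start being base 1 and bases before it negative, and was read from the NCBIM37 (mm9) genome for all 11608 genes. The 3-unit heat shock element was searched as GAANNTTC directly followed by NNGAA, which is 3 alternating copies of GAA and its reverse complement. The endoplasmic reticulum stress element (ERSE) was searched as CCAAT and CCACG separated by 9 free bases. Both strands were searched, and overlapping matches were kept. The 3-unit heat shock element was present in 4 of the 10 chaperone promoters, those of Hsph1 and Hspd1 among them, and in 50 of all 11608 promoters (0.431%). The ERSE, which was added after the values of Hspa5 had been seen, was present in Hspa5 alone among the 10 and in 17 of all promoters (0.146%). A match describes these letters only. It does not show that a factor was bound.

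The promoters of Hsph1 and Hspd1, with a 3-unit element, and that of Hspa5 are printed on the strand of the gene, with 30 bases after the start. Capitals mark matches to the 3-unit element, to its 2-unit parts GAANNTTC and TTCNNGAA, or, in Hspa5, to the ERSE. The regions are chr5:150438861-150439140 (minus strand) for Hsph1, chr1:55144660-55144939 (minus strand) for Hspd1 and chr2:34627365-34627644 (plus strand) for Hspa5.
Hsph1: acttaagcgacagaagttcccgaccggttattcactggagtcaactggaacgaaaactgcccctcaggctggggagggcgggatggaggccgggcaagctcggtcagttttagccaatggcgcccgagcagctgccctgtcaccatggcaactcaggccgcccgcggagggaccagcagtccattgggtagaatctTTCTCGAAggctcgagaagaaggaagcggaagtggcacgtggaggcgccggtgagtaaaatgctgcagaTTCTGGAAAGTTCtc
Hspd1: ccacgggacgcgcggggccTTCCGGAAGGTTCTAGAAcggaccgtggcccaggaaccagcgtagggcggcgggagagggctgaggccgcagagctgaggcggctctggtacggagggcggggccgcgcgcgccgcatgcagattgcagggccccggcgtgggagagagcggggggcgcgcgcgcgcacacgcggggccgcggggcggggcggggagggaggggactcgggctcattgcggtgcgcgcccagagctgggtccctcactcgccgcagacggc
Hspa5: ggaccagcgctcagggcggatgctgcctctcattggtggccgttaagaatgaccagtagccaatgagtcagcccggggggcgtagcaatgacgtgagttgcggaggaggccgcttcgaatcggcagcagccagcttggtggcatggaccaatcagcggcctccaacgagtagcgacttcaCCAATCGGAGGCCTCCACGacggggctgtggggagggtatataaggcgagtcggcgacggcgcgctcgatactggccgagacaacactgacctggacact

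In Hsph1 the 3-unit match lay after the start, at bases 16 to 28, with a 2-unit match at bases -54 to -47. Hspd1 held 2 overlapping matches that form a longer run of alternating units from base -231 to -214, and the first 8 bases of this run were also found at the far edge of the window of Hspe1, which is transcribed in the other direction from the same stretch of DNA. Neither Hsp90ab1, Hspa4 nor Hspa5 held even a 2-unit match, whereas Dnajb1 held 1 after its start at bases 29 to 36 and Hspa9 held 1 of each 2-unit form. In all, 7 of 10 chaperone promoters held a 2-unit match in either form, against 11.9% of all promoters. The ERSE of Hspa5 lay at bases -70 to -52.

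**Figure D1:**
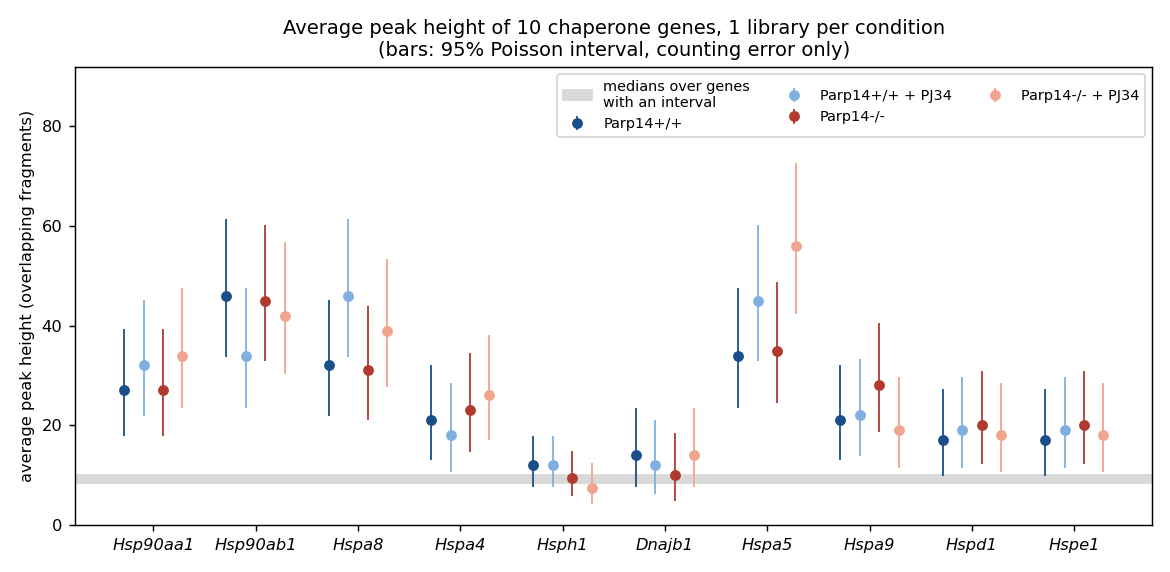
Average peak height (overlapping fragments, y axis) of each chaperone gene in the 4 libraries, 1 point per library, with 95% Poisson intervals that cover counting error only and a grey band over the 4 medians of all genes with an interval. Hsp90ab1, Hspa8, Hspa5 and Hsp90aa1 stand at 27 to 56, Hsph1 and Dnajb1 stand near the band, and the points of Hspd1 and Hspe1 are the same measurement.

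The chaperone genes had tall peaks of serine 2 phosphorylated polymerase, and by listed value 8 of the 10 stood above at least 80.2% of genes in every library. Among them are Hspa9 and Hspe1, whose listed values do not describe the gene itself. The median over the 10 genes was 21 in Parp14+/+ and 20.5 in Parp14+/+ + PJ34 cells, and 25 in Parp14-/- and 22.5 in Parp14-/- + PJ34 cells, against 8.5 to 10 over all genes. In Parp14+/+ they ran from 12 at Hsph1 to 46 at Hsp90ab1, and in Parp14-/- + PJ34 from 7.5 at Hsph1 to 56 at Hspa5. Hsp90ab1, Hspa5, Hspa8 and Hsp90aa1 lay above at least 91.4% of the genes in every library, and their places in the order changed between libraries within intervals that overlap. Hspa9, Hspa4, Hspd1 and Hspe1 formed a middle group at 17 to 28, whose intervals overlap one another in each library. Dnajb1 and Hsph1 were the lowest, at 7.5 to 14.

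The HSP90 genes encode the stress-inducible form (Hsp90aa1) and the constitutive form (Hsp90ab1) of the cytosolic chaperone. Hsp90aa1 (chromosome 12, 111929246 to 111934605, minus strand) had heights of 27 in Parp14+/+ and 32 in Parp14+/+ + PJ34 cells, and 27 in Parp14-/- and 34 in Parp14-/- + PJ34 cells. The untreated libraries were equal and each PJ34 library stood above its untreated partner. The PJ34 to untreated ratio was 1.19 (0.688 to 2.06) in Parp14+/+ and 1.26 (0.738 to 2.17) in Parp14-/-, so the difference was within counting error.

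Hsp90ab1 (chromosome 17, 45704727 to 45710210, minus strand) had heights of 46 in Parp14+/+ and 34 in Parp14+/+ + PJ34 cells, and 45 in Parp14-/- and 42 in Parp14-/- + PJ34 cells. By the heights as deposited it was the only chaperone gene that was lower with PJ34 in both genotypes, with PJ34 to untreated ratios of 0.739 (0.460 to 1.18) and 0.933 (0.598 to 1.45), and 22.1% of 8530 genes were lower in both. After scaling the Parp14-/- to Parp14-/- + PJ34 ratio was 0.974 in place of 1.07. Its active region also covers Nfkbie and Slc35b2, which have the same values, and in 3 of 4 libraries the highest point lay 215 to 1143 bp past the end of Hsp90ab1, inside the end of the convergent gene Slc35b2. In Parp14-/- + PJ34 the highest point lay 34 bp from the start of Hsp90ab1 itself. The 4 values therefore do not all measure polymerase at the same place. The same holds for Hsp90aa1, Hspa8, Hspa4, Hsph1, Dnajb1, Hspa9, Hspd1 and Hspe1.

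Hspa8 encodes the constitutive HSP70 of the cytosol. Hspa8 (chromosome 9, 40609356 to 40613282, plus strand) had heights of 32 in Parp14+/+ and 46 in Parp14+/+ + PJ34 cells, and 31 in Parp14-/- and 39 in Parp14-/- + PJ34 cells. Both untreated libraries lay below both PJ34 libraries, as they did at Hsp90aa1 and Hspa5 and at 9.37% of 8551 genes. The PJ34 to untreated ratio was 1.44 (0.896 to 2.33) in Parp14+/+ and 1.26 (0.765 to 2.09) in Parp14-/-, and both intervals include 1. The first ratio compares different places, since the highest point lay 1822 bp past the end in Parp14+/+ and at the start in Parp14+/+ + PJ34.

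Hspa4 and Hsph1 encode HSP110 proteins, nucleotide exchange factors of HSP70. Hspa4 (chromosome 11, 53073316 to 53113981, minus strand), by far the longest of the 10 genes, had heights of 21 in Parp14+/+ and 18 in Parp14+/+ + PJ34 cells, and 23 in Parp14-/- and 26 in Parp14-/- + PJ34 cells. Both Parp14-/- libraries lay above both Parp14+/+ libraries, at this chaperone gene alone and at 10.7% of 8551 genes. The Parp14+/+ to Parp14-/- ratio was 0.913 (0.481 to 1.73) without and 0.692 (0.358 to 1.31) with PJ34. Only 5.47% of genes had a ratio below the latter.

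Hsph1 (chromosome 5, 150419420 to 150438890, minus strand) has 2 active regions and had average heights of 12 in Parp14+/+ and 12 in Parp14+/+ + PJ34 cells, and 9.5 in Parp14-/- and 7.5 in Parp14-/- + PJ34 cells. It is the only chaperone gene with both Parp14+/+ libraries above both Parp14-/- libraries, an order found at 26.5% of 8551 genes. The Parp14+/+ to Parp14-/- ratio was 1.26 (0.663 to 2.44) without and 1.60 (0.806 to 3.28) with PJ34, and at these low heights such ratios are within counting error. The length of the gene covered by intervals followed the same order, at 83.8%, 69.2%, 62.3% and 26.9% in Parp14+/+, Parp14+/+ + PJ34, Parp14-/- and Parp14-/- + PJ34. This order is not particular to Hsph1. Over the 3834 genes with an interval in all 4 libraries the median share covered was 71.5%, 53.4%, 46.6% and 42.0%. An interval reached the start of Hsph1 in Parp14+/+ alone.

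Dnajb1 encodes an HSP40 that is induced by heat and activates HSP70. Dnajb1 (chromosome 8, 86132092 to 86135802, plus strand) had heights of 14 in Parp14+/+ and 12 in Parp14+/+ + PJ34 cells, and 10 in Parp14-/- and 14 in Parp14-/- + PJ34 cells. The Parp14+/+ to Parp14-/- ratio of 1.4 (0.578 to 3.52) was the highest of the 10 genes and rests on counts of 14 and 10. Intervals covered 100%, 99.8% and 100% of the gene in the other 3 libraries but 6.82% in Parp14-/-, where an interval 6750 bp long began near the end of the gene and ran 6497 bp past it.

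Hspa5 encodes BiP, the main HSP70 of the endoplasmic reticulum and a standard target of the unfolded protein response. Hspa5 (chromosome 2, 34627615 to 34631977, plus strand) had heights of 34 in Parp14+/+ and 45 in Parp14+/+ + PJ34 cells, and 35 in Parp14-/- and 56 in Parp14-/- + PJ34 cells. The untreated libraries were nearly equal and both PJ34 libraries were higher, the highest value of any chaperone gene being that of Parp14-/- + PJ34, which 98.7% of genes did not reach. The PJ34 to untreated ratio was 1.32 (0.829 to 2.13) in Parp14+/+ and 1.60 (1.03 to 2.52) in Parp14-/-. The latter was the only one of the 40 ratios of chaperone genes whose 95% interval left out 1, and an interval on that side of 1 was found for 0.269% of 8539 genes. Intervals narrow as heights rise, and no share among genes as tall as Hspa5 was taken. The response of Hspa5 differed between the genotypes by less than counting error, the ratio of the Parp14+/+ response to the Parp14-/- response being 0.827 (0.448 to 1.53, Woolf interval).

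The mitochondrial genes encode the HSP70 of the matrix, which also pulls proteins in (Hspa9), the barrel-shaped chaperonin (Hspd1) and its lid (Hspe1). Hspd1 (chromosome 1, 55134679 to 55144689, minus strand) and Hspe1 (55145161 to 55148150, plus strand) start back to back and shared heights of 17 in Parp14+/+ and 19 in Parp14+/+ + PJ34 cells, and 20 in Parp14-/- and 18 in Parp14-/- + PJ34 cells. These 4 values lay within 3 fragments of each other. Their ratios ran from 0.85 to 1.11 over the 4 comparisons.

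Hspa9 on chromosome 18 was listed with heights of 21 in Parp14+/+ and 22 in Parp14+/+ + PJ34 cells, and 28 in Parp14-/- and 19 in Parp14-/- + PJ34 cells. These values are shared with Etf1, a translation termination factor gene, through an active region 71850 bp long. In Parp14+/+, Parp14+/+ + PJ34 and Parp14-/- + PJ34 the highest point of the interval lay 34141 to 39293 bp past the end of Hspa9, inside Etf1 or within 4654 bp of its end. In Parp14-/- the interval on Hspa9 ended 3685 bp past the gene and its own highest point was 16, so the listed 28 was reached elsewhere in the active region. With the highest interval at the gene in place of the listed value, the Parp14+/+ to Parp14-/- ratio was 1.31 in place of 0.75 and the Parp14-/- to Parp14-/- + PJ34 ratio 0.842 in place of 1.47, so both turned direction. The deposited value thus does not describe Hspa9 itself.

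**Figure D2:**
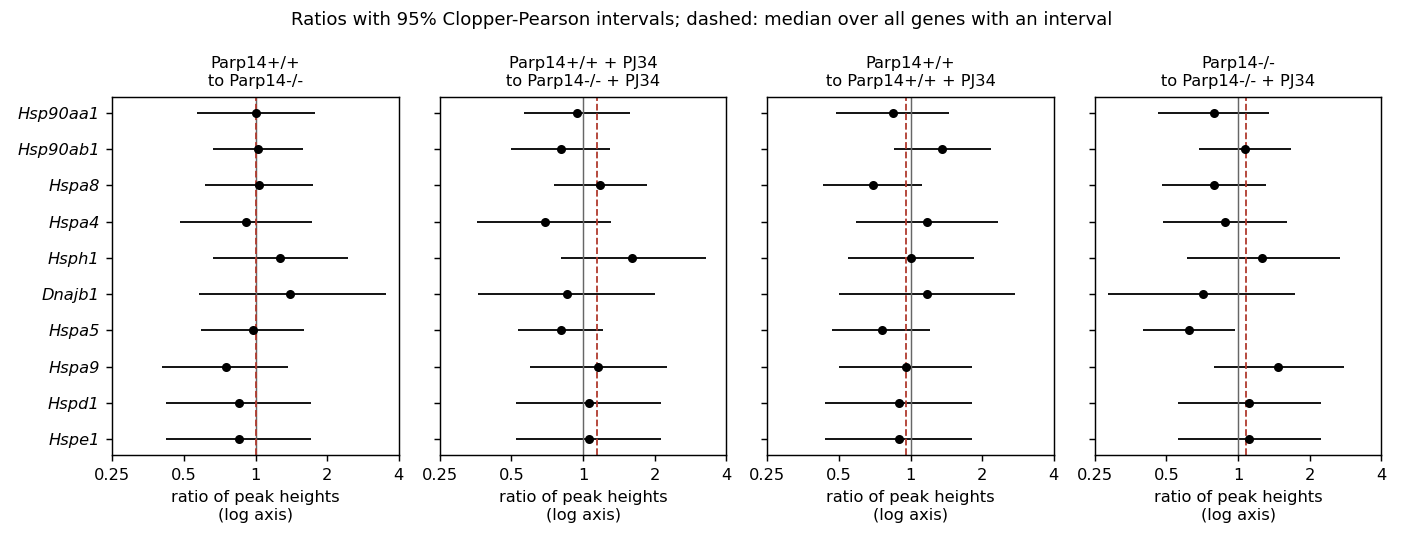
Ratio of average peak heights (x axis, log scale) of each chaperone gene in 4 comparisons, with 95% Clopper-Pearson intervals; the solid line is 1 and the dashed line the median over all genes with an interval. The intervals cross 1 at every gene in the first 3 panels, and in the last panel Hspa5, at 0.625, lies below 1 with its whole interval.

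As a group, the chaperone genes lay on both sides of 1 between the untreated genotypes. The Parp14+/+ to Parp14-/- ratio was above 1 in 4, below 1 in 5 and equal to 1 in 1 of the 10 genes, against 49.0% above and 42.6% below over 8538 genes. Its median was 0.986, against 1.00 over all genes. None of the 10 genes was above 1.4 or below 0.7, the limits the study set for this pair, where 12.7% and 11.0% of all genes lay. At the study's wider limits, 2 genes were above 1.2 (Hsph1 and Dnajb1), where 27.7% of all genes lay. Only Hspa9, which turned direction by its own interval, was below 0.83, where 24.5% lay. The study kept the wider limits for genes whose average peak value exceeded 2 in at least 1 library of the pair. It reported far more genes above its limits than below, unlike the similar shares here. Whether its values and these heights share a scale was not tested, so only its ratio limits were applied. The interval left out 1 in none of the 10 genes, against 0.984% above and 2.07% below over all genes.

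In PJ34-treated cells the ratio of Parp14+/+ + PJ34 to Parp14-/- + PJ34 was above 1 in 5 and below 1 in 5 of the 10 genes, while 63.9% of 8540 genes were above and 28.3% below. The median was 0.998 over the chaperone genes and 1.14 over all genes. Hspa4, Hspa5 and Hsp90ab1 were below 0.83, where 13.7% of genes lay, and Hsph1 alone was above 1.2, where 42.5% lay. The interval left out 1 in none of the 10 genes, against 2.67% above and 0.761% below over all genes. The Parp14-/- + PJ34 library had lower heights over all genes, with a median ratio of 0.909 to Parp14+/+, and once the libraries were scaled to a median ratio of 1 only 3 of the 10 genes were above 1.

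PJ34 itself was compared within each genotype. The Parp14+/+ to Parp14+/+ + PJ34 ratio was above 1 in 3, below 1 in 6 and equal to 1 in 1 of the 10 genes, against 38.4% above and 52.7% below over 8540 genes, with medians of 0.925 and 0.959. Hsp90ab1 alone was above 1.2, where 18.0% of genes lay, and Hspa8 and Hspa5 were below 0.83, where 27.5% lay. The interval left out 1 in none of the 10, against 0.691% above and 0.913% below over all genes. In Parp14-/- cells 5 were above and 5 below 1, against 57.5% and 32.6% of 8539 genes, with medians of 0.978 and 1.08. Hsph1 and, by its listed value, Hspa9 were above 1.2, where 33.3% of genes lay, and Hsp90aa1, Hspa8, Dnajb1 and Hspa5 were below 0.83, where 15.4% lay. The interval of Hspa5 was the only one to leave out 1, below it, and 1.37% of genes had an interval above 1. Hsp90aa1, Hspa8 and Hspa5 were higher with PJ34 in both genotypes, which held for 17.3% of 8530 genes. Hspa8 and Hspa5 passed the limit of 0.83 in both, as did 4.96% of genes. These 2 comparisons share no library.

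Of the 50 genes with a 3-unit heat shock element in the promoter window, 42 had an interval. Their median Parp14+/+ to Parp14+/+ + PJ34 ratio was 0.866, with 12 above and 29 below 1, and without the 4 chaperone genes it was the same, with 12 above and 26 below. In Parp14-/- cells the median was 1.00, with 20 above and 15 below. Over all genes the medians were 0.959 and 1.08, and the difference between the genotypes was not tested. Of the 17 genes with an ERSE, 14 had an interval. Without Hspa5, whose values prompted the search, the 13 others had a median Parp14+/+ to Parp14+/+ + PJ34 ratio of 1.10, with 8 above and 5 below 1, against 38.4% and 52.7% of all genes. In Parp14-/- cells their median was 0.917, with 3 above and 8 below 1, against 57.5% and 32.6%.

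**Figure D3:**
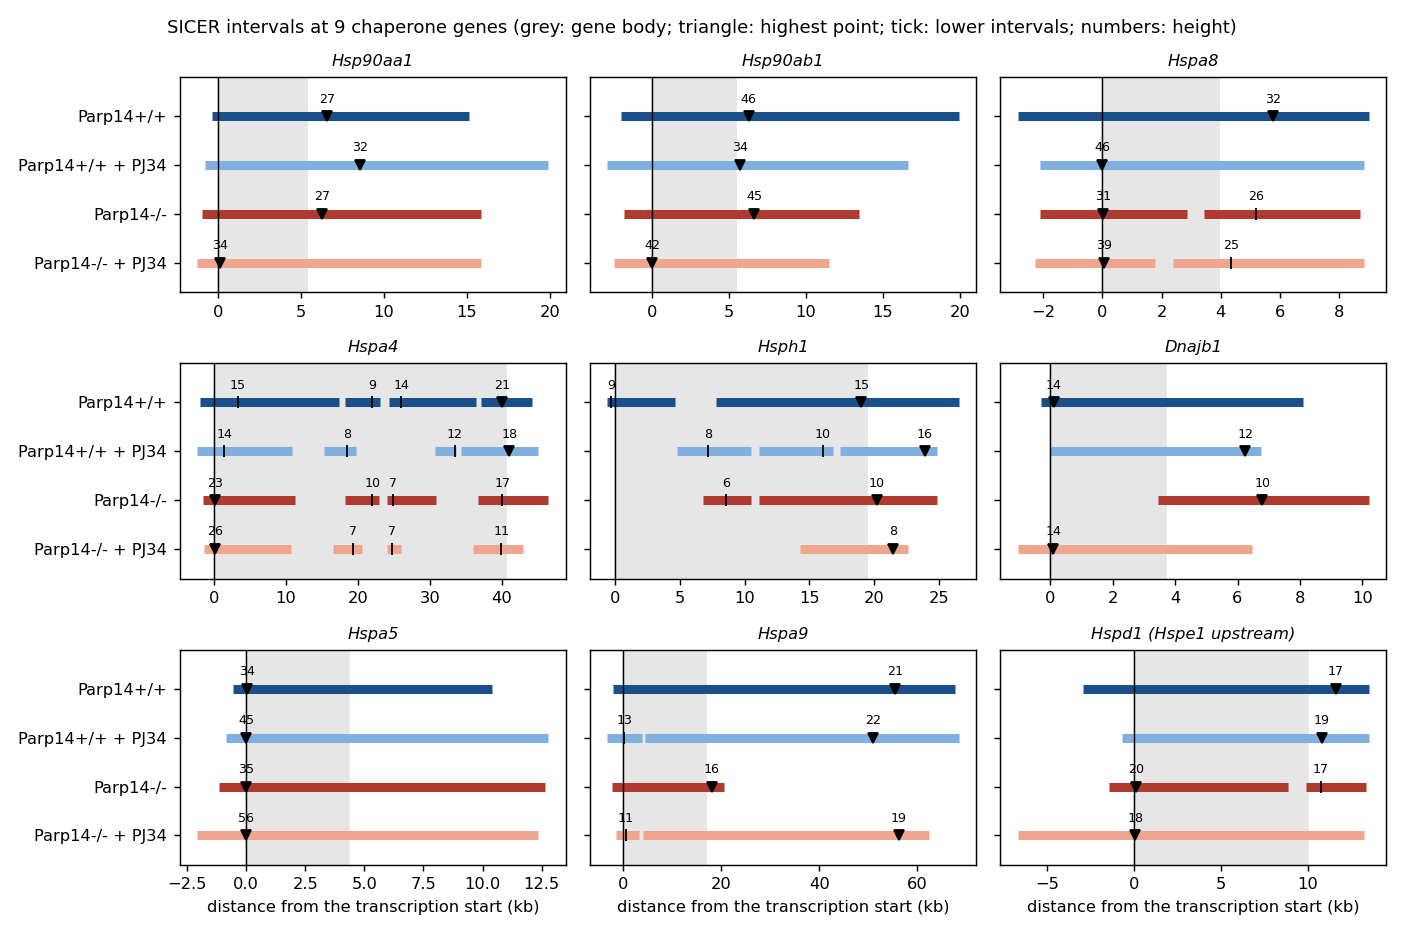
SICER intervals (coloured bars, 1 row per library) at the chaperone genes, by distance from the transcription start in kb along the direction of transcription, with the gene body in grey; the triangle marks the highest point, ticks mark the highest points of lower intervals and the numbers are heights. Highest points sit past the end of Hsp90aa1, Hsp90ab1, Hspa8 and Hspd1 in Parp14+/+ and at their start in Parp14-/- + PJ34.

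The highest point also lay at different places along a gene in different libraries. This was looked at after the heights had been seen. In Parp14+/+ the highest point lay within 500 bp of the start in 2 of the 10 genes, Dnajb1 and Hspa5. It did so in 2 genes in Parp14+/+ + PJ34 (Hspa8 and Hspa5), in 4 genes in Parp14-/- (Hspa8, Hspa4, Hspa5 and Hspd1) and in 7 genes in Parp14-/- + PJ34. Over the 3834 genes with an interval in all 4 libraries the shares were 18.3%, 20.3%, 22.9% and 24.6% in the same order. Among the 2637 of these at least as high on average as the lowest chaperone gene they were 20.6%, 23.3%, 26.8% and 28.4%. Past the deposited end lay the highest points of 5, 7, 5 and 2 chaperone genes, against 41.6%, 37.2%, 34.0% and 34.0% of the 3834 genes.

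The 7 genes in Parp14-/- + PJ34 were Hsp90aa1, at 109 bp from the start, Hsp90ab1 at 34 bp, Hspa8 at 52 bp, Hspa4 at 157 bp, Dnajb1 at 100 bp, Hspa5 at 17 bp and Hspd1 at 81 bp. All lie just downstream of the start. In Parp14+/+ the points of Hsp90aa1, Hsp90ab1, Hspa8 and Hspd1 had lain 791 to 1822 bp past the end of the gene and that of Hspa4 604 bp before its end. Of the 8 chaperone genes that were not at the start in Parp14+/+, 5 were at the start in Parp14-/- + PJ34, against 15.1% of 3133 such genes. Both genes at the start in Parp14+/+, Dnajb1 and Hspa5, were there in Parp14-/- + PJ34 too, against 67.3% of 701. In between, the point of Dnajb1 lay 2534 bp past the end in Parp14+/+ + PJ34 and 3078 bp past it in Parp14-/-. Among 42 other chaperone genes with an interval in all 4 libraries, 9, 15, 13 and 12 had the highest point at the start, and 6 of 33 (18.2%) that were elsewhere in Parp14+/+ were at the start in Parp14-/- + PJ34.

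Hspa5 kept its highest point within 33 bp of the start in all 4 libraries. In Hsph1 the highest point lay just before the deposited end in Parp14+/+ and 745 to 4444 bp past it in the other 3 libraries. The NCBIM37 annotation ends Hsph1 2558 bp further on, and by that end the points of Parp14+/+, Parp14-/- and Parp14-/- + PJ34 lay inside the gene, 3010, 1813 and 530 bp before it, and only that of Parp14+/+ + PJ34 lay past it. The gene edge nearest to this point of Parp14+/+ + PJ34 was the end of the neighbouring gene Wdr95, 506 bp away. In Hspa8 only the Parp14+/+ library had its highest point past the end, 1822 bp beyond it. The other 3 libraries had it within 52 bp of the start. A highest point is chosen by as little as 1 fragment, and where 1 interval spans the gene the height at its other end is not given, so how far the signal at either end changed is not known.

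**Figure D4:**
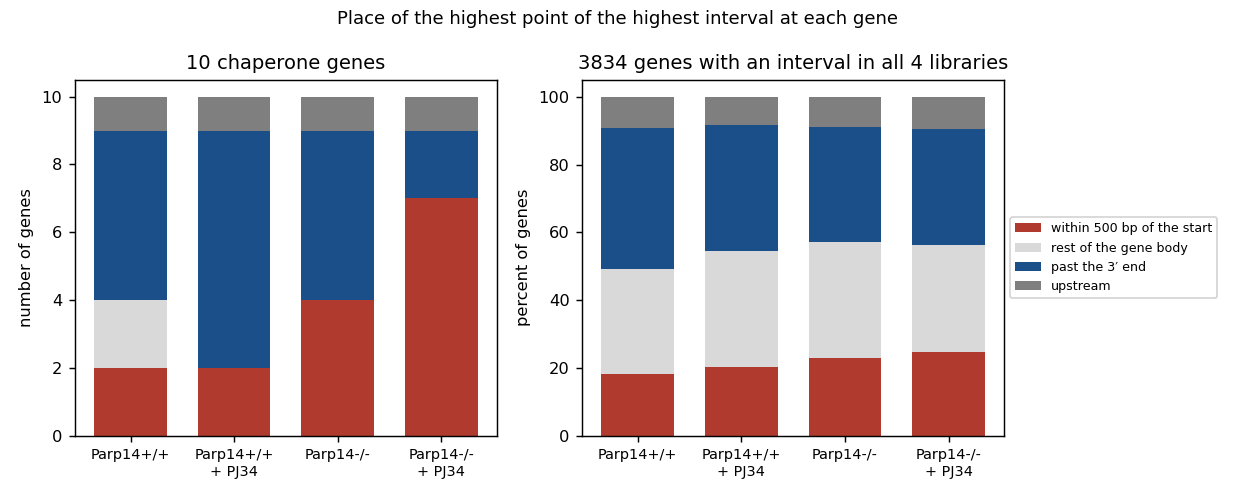
Place of the highest point of the highest interval at each gene, as the number of the 10 chaperone genes (left) and the percent of 3834 genes with an interval in all 4 libraries (right), per library. Places within 500 bp of the start (red) hold 2, 2, 4 and 7 chaperone genes from left to right, and 18.3% to 24.6% of all genes.

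Where a gene had separate intervals at its ends, both heights could be read, though rarely in every library. In Hspa4 the interval at the start had heights of 15 in Parp14+/+ and 14 in Parp14+/+ + PJ34 cells, and 23 in Parp14-/- and 26 in Parp14-/- + PJ34 cells. The interval at its end had heights of 21, 18, 17 and 11 in the same order. The interval over the start was thus lower than that at the end in both Parp14+/+ libraries and higher in both Parp14-/- libraries. The highest points of the intervals over the start were not at the same place. In the Parp14-/- libraries they lay 141 and 157 bp from the start. In the Parp14+/+ libraries they lay further in, 3293 bp from the start when untreated and 1421 bp when treated. The heights of 15 and 14 are therefore only upper bounds for the start itself. In Hspa8 the start and end intervals were separate in the Parp14-/- libraries alone, with 31 at the start and 26 at the end in Parp14-/-, and 39 and 25 in Parp14-/- + PJ34. Hspd1 had 20 at the start and 17 at the end in Parp14-/-, and Hsph1 had 9 at the start and 15 in the other interval in Parp14+/+. At Hspa9 the start was the lower of the 2 intervals, at 13 against 22 in Parp14+/+ + PJ34 and 11 against 19 in Parp14-/- + PJ34, the higher one reaching over Etf1.

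The share of a chaperone gene covered by intervals had a wide range. Its median was 100% in Parp14+/+ and 99.9% in Parp14+/+ + PJ34 cells, and 87.1% in Parp14-/- and 100% in Parp14-/- + PJ34 cells, against 71.5%, 53.4%, 46.6% and 42.0% over the 3834 genes. Hsp90aa1, Hsp90ab1 and Hspa5 were covered whole in every library. The lowest shares were 6.82% at Dnajb1 in Parp14-/-, 9.70% at Hspe1 in Parp14+/+ + PJ34, 26.9% at Hsph1 in Parp14-/- + PJ34 and 33.1% at Hspe1 in Parp14-/-. Intervals ran over the deposited end of 9 or 10 of the 10 genes in each library, and of 69.2% to 80.1% of the 3834 genes. At Hsp90aa1 the interval reached 9746 to 14546 bp past the end, at Hspa5 6022 to 8422 bp and at Hspa8 4767 to 5067 bp. At Hsp90ab1 the reach was 14427, 11127, 7977 and 6027 bp in the 4 libraries in order, over Slc35b2 and beyond.

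**Figure D5:**
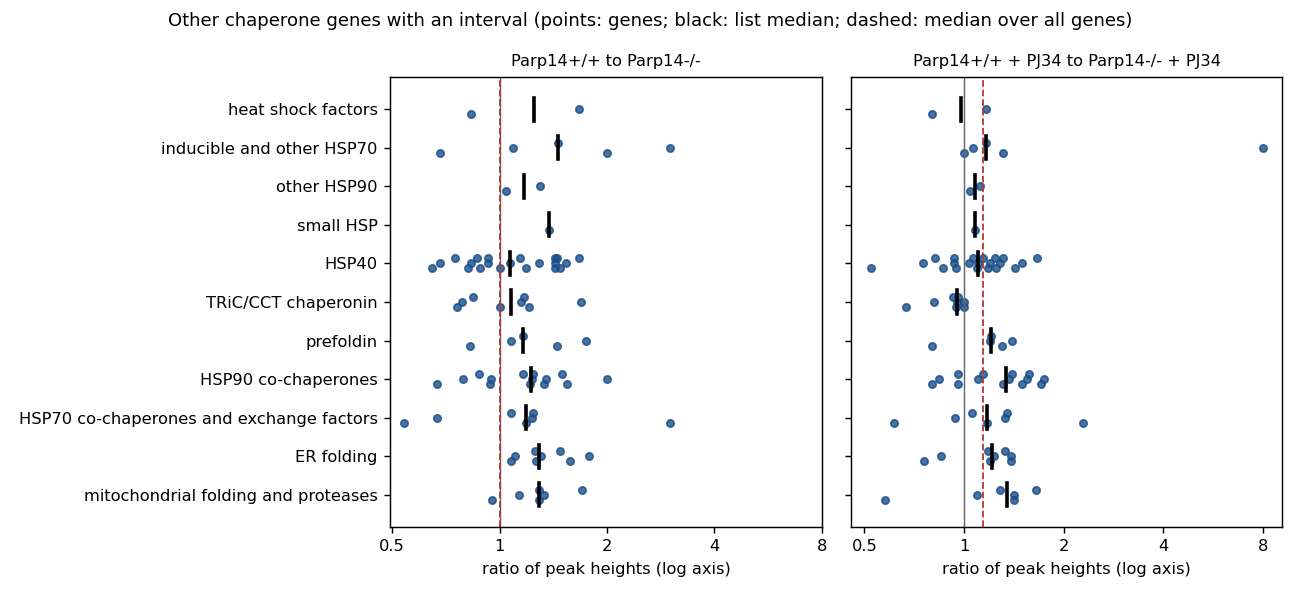
Ratio of average peak heights (x axis, log scale) of 79 other chaperone genes, by family, for the untreated pair (left) and the PJ34 pair (right); points are genes, black bars list medians, and the dashed line the median over all genes with an interval. All 8 genes of endoplasmic reticulum folding lie above 1 on the left, and no gene of the TRiC/CCT chaperonin lies above 1 on the right.

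The other genes of the chaperone network were taken from 11 lists of 114 genes, of which 100 had a row and 79 an interval. They were mostly higher in Parp14+/+ than in Parp14-/- cells, and their difference from the 10 main genes was not tested. The untreated ratio was above 1 in 54 and below 1 in 23 of 79, or 68.4% above against 49.0% of all genes, with a median of 1.19. In the PJ34 pair 52 were above and 24 below 1, or 65.8% against 63.9% of all genes, and the median was 1.14, the same as over all genes. For PJ34 itself, the untreated to PJ34 ratio was above 1 in 34 and below 1 in 37 in Parp14+/+ cells. That is 43.0% and 46.8%, against 38.4% and 52.7% of all genes. In Parp14-/- cells 36 were above and 36 below 1, or 45.6% each, against 57.5% and 32.6% of all genes.

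The heat shock factors that drive these genes had lower heights than most of the 10 main genes. Hsf1, the main stress factor, had average heights of 13.8 in Parp14+/+ and 14.3 in Parp14+/+ + PJ34 cells, and 16.5 in Parp14-/- and 12.3 in Parp14-/- + PJ34 cells over 4 active regions, and Hsf2 had 10, 8, 6 and 10. The classic heat-inducible HSP70 genes were low, Hspa1a with heights of 6, 8, 2 and 1 and Hspa1b with 6, 6, 3 and 6. Hspa1a and Hspa1b are near-identical copies and the alignments kept were unique ones, so their values are uncertain and the part of this in their low heights was not tested. Among other HSP70 genes, Hspa14, which works at the ribosome, had 8.5, 10.5, 12.5 and 9, and Hspa4l, a further HSP110 gene, had 9.25, 8.5, 8.5 and 6.5.

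Genes of protein folding in the endoplasmic reticulum were above 1 in the untreated pair in 8 of 8, against 49.0% of all genes, with a median of 1.29. In the PJ34 pair 6 were above and 2 below 1, against 63.9% and 28.3% of all genes. Calr, the calcium-binding lectin chaperone calreticulin, had the highest mean height of the 79 genes, with 54 in Parp14+/+ and 49 in Parp14+/+ + PJ34 cells, and 43 in Parp14-/- and 41 in Parp14-/- + PJ34 cells, and its untreated ratio was 1.26 (0.826 to 1.92). Manf, a stress-induced secreted factor of this compartment, had 38, 31, 30 and 41. Hsp90b1, the HSP90 of the same compartment, had 13, 11.5, 10 and 11. Canx, which encodes the membrane lectin calnexin and was singled out after its values were seen, had 12, 11.8, 6.75 and 8.5, and its untreated ratio of 1.78 (1.09 to 2.96) left out 1. Hspa5, at 0.971 (0.588 to 1.60), was on the other side of 1 from these genes.

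The TRiC/CCT chaperonin, the ring that folds actin and tubulin, had 8 genes with an interval. Cct4 had heights of 23 in Parp14+/+ and 25 in Parp14+/+ + PJ34 cells, and 19 in Parp14-/- and 27 in Parp14-/- + PJ34 cells, and Cct5 had 27, 21, 23 and 22. In the PJ34 pair none of the 8 was above 1 and 6 were below, against 63.9% and 28.3% of all genes, with a median of 0.95 against 1.14. In the untreated pair 4 were above and 3 below. Prefoldin, which hands clients to this ring, had 4 of 5 genes above 1 in each pair, against 49.0% of all genes in the untreated and 63.9% in the PJ34 pair, and every interval included 1. Pfdn2 had heights of 9.67, 11.7, 11.7 and 9.67 and Pfdn1 of 14.5, 10.5, 10 and 7.5.

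Of the HSP90 co-chaperones 9 of 14, and of the HSP70 co-chaperones and exchange factors 5 of 7, were above 1 in the untreated pair, against 49.0% of all genes, and of these 21 genes only Ppid had an interval that left out 1. Ptges3, the HSP90 co-chaperone p23, had heights of 26 in Parp14+/+ and 24.5 in Parp14+/+ + PJ34 cells, and 21 in Parp14-/- and 17.5 in Parp14-/- + PJ34 cells, and Stip1, which links HSP70 to HSP90, had 17, 16, 18 and 20. Bag6, an HSP70 cofactor, had 18, 20, 27 and 15, and Stub1, a ubiquitin ligase that marks chaperone clients, had 14, 8, 13 and 13. The HSP40 genes, the largest list, had 11 above and 9 below 1 of 21 in the untreated pair, against 49.0% and 42.6% of all genes. In the PJ34 pair 14 were above and 7 below, against 63.9% and 28.3%. Of these genes, Dnaja1 had heights of 18, 12, 22 and 23, and Dnajb4 had 20, 14.5, 14 and 15.5. Dnaja1 was lower in Parp14+/+ + PJ34 than in the other 3 libraries, with a ratio of 0.522 (0.237 to 1.09) to Parp14-/- + PJ34.

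Of the mitochondrial folding and protease genes, 5 of 6 were above 1 in each pair, against 49.0% of all genes in the untreated and 63.9% in the PJ34 pair. Lonp1, a matrix protease, had heights of 36 in Parp14+/+ and 35 in Parp14+/+ + PJ34 cells, and 28 in Parp14-/- and 32 in Parp14-/- + PJ34 cells. Grpel1, the exchange factor of Hspa9, had 12, 17, 9 and 12, Trap1, the mitochondrial HSP90, had 12.5, 9.5, 12 and 8.5, and Timm44, which tethers Hspa9 to the import channel, had 12.8, 15.3, 11.3 and 9.25. The PJ34 pair ratio of Timm44, 1.65 (1.08 to 2.55), left out 1. The small heat shock proteins were barely seen, with only Hspb7 holding an interval at 11, 13, 8 and 12, and Hspb6 without an interval at 6 to 7.5.

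Only 6 of the other chaperone genes reached a height of 50, summed over active regions, in at least 1 of the 2 untreated libraries. Their untreated ratios were 0.833 (0.572 to 1.21) at Hsf1, 0.866 (0.663 to 1.13) at Dnajc1, 1.13 (0.744 to 1.73) at Timm44, 1.24 (0.809 to 1.91) at Ptges3, 1.26 (0.826 to 1.92) at Calr and 1.45 (0.940 to 2.25) at Dnajc5. All 6 intervals include 1. Dnajc1 encodes a membrane HSP40 of the endoplasmic reticulum and Dnajc5 the HSP40 of secretory vesicles. Over all 79 genes the interval lay above 1 in 2 genes in the untreated pair, Canx and the HSP90 co-chaperone gene Ppid, where 0.984% of all genes lay, and in 2 genes in the PJ34 pair, Hspa1a and Timm44, where 2.67% lay. Between Parp14-/- and Parp14-/- + PJ34 it lay below 1 at the HSP40 gene Dnaja4, on low heights of 3 and 10, where 0.269% of all genes lay. It lay above 1 at the HSP90 co-chaperone gene Ahsa1, where 1.37% lay. No gene left out 1 between Parp14+/+ and Parp14+/+ + PJ34, against 0.691% above and 0.913% below over all genes. These names were taken after the values were seen.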

How the data were processed

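RNA Polymerase II ChIP-seq of 4 Th2 conditions, 1 library each, was analysed, with groups taken from the sample labels. According to the methods, the authors used ELAND for alignment to mm9, discarded duplicates, brought the libraries to equal numbers of alignments and called intervals with SICER against Input. SICER and mm9 are also named in the submitters' processing notes, and versions are not given in the sources used here. The authors deposited, per gene and library, a signal (the average peak height) and a presence flag, and per interval the height at its highest point. A further 8 per-sample columns belong to libraries not analysed here and were not used. The files give no depth, the methods state 1 common number of unique alignments for every library, and most genes are low, which limits precision to the counting intervals given.

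Ratios were taken of the deposited signal with no pseudocount, with 95% Clopper-Pearson intervals of heights summed over active regions. No p-values are given. Rows were matched to genes by position in the NCBIM37 annotation, since many rows without a Parp14+/+ interval carried another gene's label, as at Hspb6. Bag6 and Manf were listed under older symbols. Promoters were read from the NCBIM37 genome at the deposited starts, taken as 1-based; the sequences of some promoters are not reported here. Python 3.11.15, pandas 2.3.3, numpy 2.4.6, scipy 1.17.1 and matplotlib 3.10.9 were used, and the ratio code was tested on simulated data. Named were the 10 genes, Parp14, in each other list the 2 genes with the highest mean height, and the 3 highest and 3 lowest untreated ratios among genes with a summed height of at least 50 in the higher untreated library. The 10 genes, lists and rules were chosen with earlier results of these data known. Alternatives were another scale, another height, covered length, neighbours counted once and other distances and gene ends. The Input was not used beyond the interval calls.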

Additional observations from a re-analysis of the deposited data

Results flagged for a closer look

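At 5 genes the PJ34 library lay on one side of its untreated partner in Parp14+/+ cells and on the other side in Parp14-/- cells. Over 8530 genes, 17.3% were higher and 22.1% lower with PJ34 in both genotypes. The remaining genes, the larger part, changed side or were equal in at least 1 genotype, so such a pattern is common. The PJ34 to untreated ratio in Parp14+/+ and Parp14-/- cells was 0.857 and 1.13 at Hspa4, 0.857 and 1.4 at Dnajb1, 1.05 and 0.679 at Hspa9, and 1.12 and 0.90 at Hspd1 and, as the same measurement, Hspe1. With 1 library per condition the difference between genotypes was not tested. The Parp14+/+ response divided by the Parp14-/- response was 0.758 (0.326 to 1.76) at Hspa4, 0.612 (0.200 to 1.88) at Dnajb1, 1.54 (0.670 to 3.56) at Hspa9 and 1.24 (0.498 to 3.09) at Hspd1, and these counting intervals include 1. At Hspa9 the values belong to an active region shared with Etf1. With the highest interval at Hspa9 the Parp14-/- to Parp14-/- + PJ34 ratio was 0.842, so that PJ34 lay on the same side in both genotypes.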

How the results depend on the processing

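Under the alternatives, 113 ratios of single chaperone genes stayed within counting error and 7 did not, all of them with covered length in place of height, at Dnajb1, Hspe1 and Hspa5. Not all of these ratios could move. Scaling left the untreated pair as it was, since its factor was 1. The highest interval at the gene gave the listed value except at Hsph1 and Hspa9. Hsp90aa1, Hsp90ab1 and Hspa5 were covered whole in every library, so their covered-length ratio could only be 1. Some ratios crossed 1, 3 after scaling, 2 by the highest interval at the gene and 10 by covered length. The 2 were both at Hspa9, from 0.75 to 1.31 in Parp14+/+ to Parp14-/- and from 1.47 to 0.842 in Parp14-/- to Parp14-/- + PJ34, since its listed height was reached elsewhere. The 3 were Hspd1 and Hspe1 in the PJ34 pair and Hsp90ab1 in Parp14-/- to Parp14-/- + PJ34, so that after scaling Hsp90ab1 was no longer lower with PJ34 in both genotypes, while Hsph1 was, at ratios of 1.04 and 1.15. With the libraries scaled to a median ratio of 1, 3 chaperone genes in place of 5 were above 1 in Parp14+/+ + PJ34 to Parp14-/- + PJ34, since that scaling lowers every ratio of this pair, and 39 in place of 52 other chaperone genes were. By covered length, 5 in place of 3 were above 1 in Parp14+/+ to Parp14+/+ + PJ34, and 3 in place of 5 in Parp14-/- to Parp14-/- + PJ34. At genes not covered whole the cause of the changes by covered length was not tested. When only intervals over at least 50% of a gene's length counted, 9, 7, 6 and 7 of the 10 genes had one in the 4 libraries in order, and in Parp14-/- no interval at Hspa4, Hsph1, Dnajb1 or Hspe1 covered that much. The share of all genes at this limit was not taken. Median coverage over the 3834 genes was also lower in the other libraries than in Parp14+/+, at 71.5%, 53.4%, 46.6% and 42.0% in order. The Parp14-/- to Parp14-/- + PJ34 ratio of Hspa5 was 0.568 after scaling and 0.625 from the highest interval at the gene. Distances of 200 and 1000 bp from the start, chosen after seeing the data, gave 2 and 2 genes in each Parp14+/+ library, 4 and 5 in Parp14-/-, and 7 and 8 in Parp14-/- + PJ34. By the NCBIM37 ends, also chosen after seeing the data, 5, 7, 4 and 1 genes in place of 5, 7, 5 and 2 had their highest point past the end, Hsph1 being the gene that changed. No replicate could be left out. No paired analysis was possible because each condition has 1 library, so that the conditions share fewer than 2 replicate numbers.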
